A study of Mus musculus with 8 samples.

Results

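The adipocyte genes described here are 33 genes of fat cells, chosen by symbol from a list of adipocyte proteins, and every one was found among the 33549 entries with a count. They were followed by site, replicate and section through a tomo-seq series of the mouse mouth. Tomo-seq barcodes the RNA of each cryosection of a block by itself, which gives expression along the axis of cutting. Wild-type C57BL/6J mice, with no treatment and no age given in the labels, provided buccal mucosa (inner cheek), dorsal tongue (upper surface), hard palate and ventral tongue (underside), 2 replicates of each. Each of the 8 samples had 20 sections of 14 µm, numbered from 1, and the labels do not say which face of the block was cut first. The labels number the replicates without saying whether they were separate animals, so the p-values speak of the spread among these 8 samples alone, and that spread may be technical. The genes were described in 3 groups set by where each is known to be expressed: 9 fat-restricted genes, 11 shared with skeletal muscle or its capillaries, and 13 of lipid synthesis and its regulation that many tissues use.

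White adipocytes store triglyceride in a single large droplet and release it as fatty acids and glycerol. Fatty acids reach them from blood lipoproteins through lipoprotein lipase and the transporter Cd36, or are made from glucose by the lipogenic enzymes, and the nuclear receptor Pparg with Cebpa maintains the cell's identity. Skeletal muscle takes up and burns the same fuels, so that several of these genes are strongly expressed there as well. In the mouth, fat lies in the submucosa of cheek and palate and between the muscle bundles of the tongue.

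Because most fat-restricted genes moved together, the 250 bases before the transcription start are shown for 3 genes of secreted adipocyte proteins, Adipoq, Cfd and Lep, and for the lipogenic enzyme Fasn, which did not move with them in every sample. They are RefSeq promoters of GRCm38.p6, read 5′ to 3′ on the gene's strand, at chr16:23146286-23146535 (+) for Adipoq, chr10:79890603-79890852 (+) for Cfd, chr6:29059971-29060220 (+) for Lep and chr11:120824548-120824797 (-) for Fasn. Capitals mark matches on either strand to the letters CCAAT, or to TTGCNNAA, a C/EBP-type motif.
Adipoq: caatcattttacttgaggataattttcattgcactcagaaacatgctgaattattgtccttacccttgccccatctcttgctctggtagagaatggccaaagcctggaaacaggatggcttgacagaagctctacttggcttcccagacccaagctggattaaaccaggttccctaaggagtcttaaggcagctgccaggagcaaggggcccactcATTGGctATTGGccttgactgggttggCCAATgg
Cfd: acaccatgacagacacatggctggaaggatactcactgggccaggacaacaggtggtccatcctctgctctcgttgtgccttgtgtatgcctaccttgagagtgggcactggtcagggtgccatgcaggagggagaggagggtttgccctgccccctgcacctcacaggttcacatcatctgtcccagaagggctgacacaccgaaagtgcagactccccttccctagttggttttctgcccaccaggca
Lep: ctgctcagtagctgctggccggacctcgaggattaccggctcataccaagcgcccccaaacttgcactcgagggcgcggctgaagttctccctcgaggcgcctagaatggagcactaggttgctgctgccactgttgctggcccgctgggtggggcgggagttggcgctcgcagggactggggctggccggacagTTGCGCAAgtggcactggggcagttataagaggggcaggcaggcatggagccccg
Fasn: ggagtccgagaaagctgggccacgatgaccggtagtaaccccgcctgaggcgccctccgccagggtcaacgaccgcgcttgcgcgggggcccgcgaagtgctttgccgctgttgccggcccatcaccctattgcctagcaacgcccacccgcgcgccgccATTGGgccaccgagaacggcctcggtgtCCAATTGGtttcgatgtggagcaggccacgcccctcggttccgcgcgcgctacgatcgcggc
Adipoq had 3 CCAAT matches, which began 34, 27 and 7 bases before the start. Fasn had 3, at 90, 62 and 59 bases, of which the last 2 overlapped. Lep had 1 C/EBP-type match, TTGCGCAA, at 55 bases, and the Cfd window had neither motif. Of the 33 genes 22 matched a RefSeq promoter. Some have several start sites, which gave 29 promoters. Counted per promoter, the C/EBP-type motif was in 4 of the 29 (of Cidec, Lep, Plin1 and Pparg), against 9.56% of all 32851 promoters, and CCAAT in 9 (of 8 genes), against 33.8%. The PPAR DR1 element was in 0 of the 29, against 0.338% of all, the SREBP-type TCACNCCAC in 1 (Acsl1), against 1.05%, and the CREB-type TGACGTCA in 0, against 1.55%. The motifs were chosen after the sequences had been seen, and a match describes letters only.

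Totals ran from 7830471 to 26376536 UMIs (unique molecular identifiers, each marking 1 captured RNA molecule) per sample, with 1.91 to 2.74 reads per UMI. Levels are given as CPM, the UMIs of a gene per 1000000 UMIs of the sample or section, and 3 UMIs, the most that a count of 0 allows, equalled 0.114 to 0.383 CPM. Buccal mucosa replicate 2 stood apart from the other 7 samples. Its 8 keratinocyte genes summed to 389 CPM against 13820 to 18350 elsewhere, so the defining markers of oral epithelium were scarce in it. Its 12 salivary gland genes summed to 8975 CPM against 16.7 to 46.1, with the secreted salivary proteins Bpifa2 at 5376 CPM and Muc19 at 2967 CPM. Its 18 skeletal muscle genes summed to 54780 CPM, against 20220 to 31500 in buccal mucosa replicate 1 and the tongue, 678 in hard palate replicate 1 and 237 in hard palate replicate 2. The shares of these other tissues moved with the adipocyte genes in that sample, and their part in the results was not tested. In samples of whole sections, fewer cells of a type and less RNA per cell cannot be told apart.

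Fat-restricted genes were high in 1 sample, low in a second and near 0 in the tongue. Adipoq, which encodes the hormone adiponectin (chr16:23146536-23158028 in GRCm38), was at 367 CPM in buccal mucosa replicate 2 and at 0.711 in replicate 1. It was at 11.3 CPM in hard palate replicate 2 and 1.18 in replicate 1. In dorsal tongue it was at 0.0471 and 0.541 CPM, and in ventral tongue at 0.0618 and 0.0487, which is 1 UMI in each of 3 of these samples and 11 in dorsal tongue replicate 2. Buccal mucosa replicate 2 was thus 32.4 times as high as the next sample, and the replicates of a site lay on either side of other sites. Cfd, the complement factor adipsin that fat secretes, repeated the order at 1750 CPM in buccal mucosa replicate 2 and 2.55 in replicate 1. Hard palate held 3.89 and 25.7 CPM of Cfd and dorsal tongue replicate 2 3.25, while dorsal tongue replicate 1 had no UMI (up to 0.141 CPM) and the ventral tongue samples had 1 UMI each. Retn, the hormone resistin, was at 142 CPM in buccal mucosa replicate 2, at 3.34 in hard palate replicate 2 and at 0.0974 to 0.620 in the other 6 samples. Lep, the satiety hormone leptin, was the scarcest of the secreted group. It had 58 UMIs (7.41 CPM) in buccal mucosa replicate 2, 1 UMI in dorsal tongue replicate 1 and in hard palate replicate 1, and none in the other 5 samples.

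**Figure D1:**
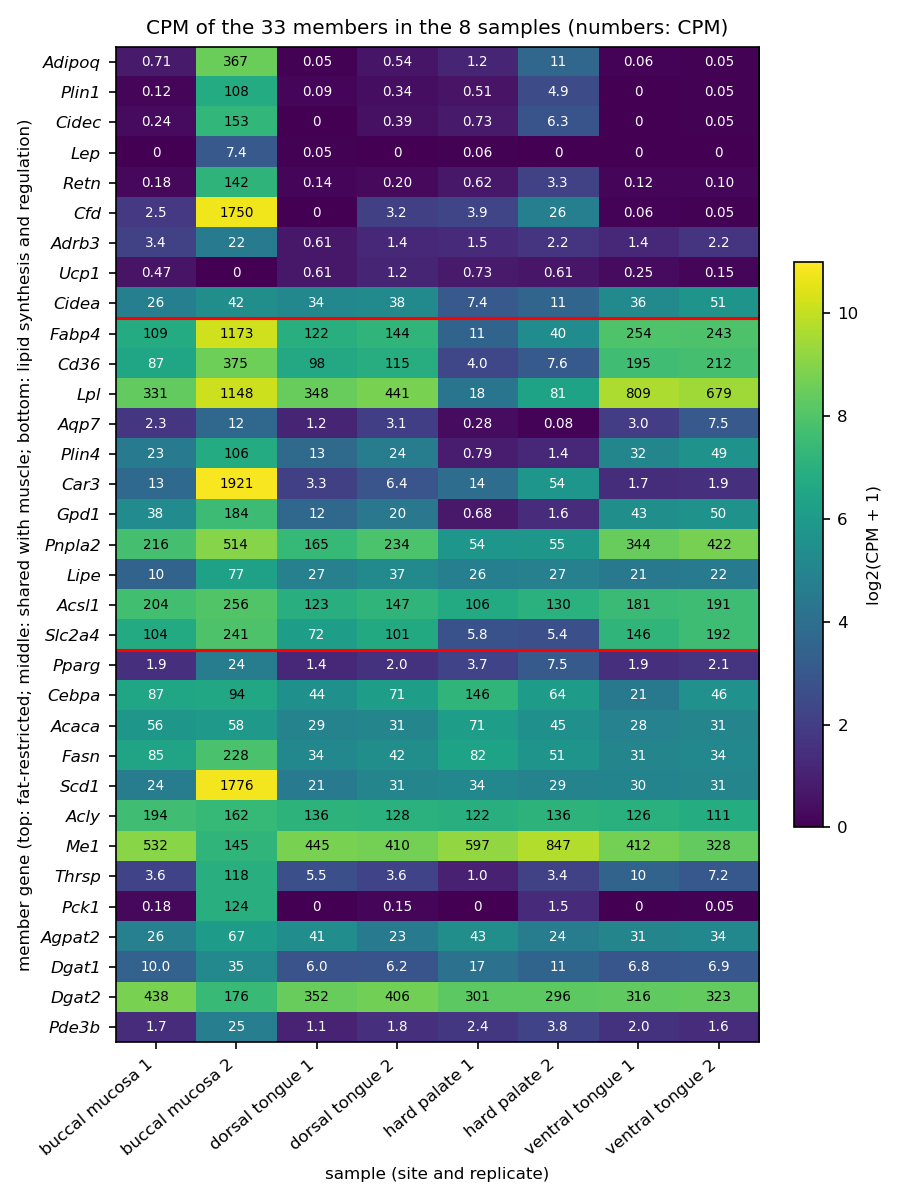
CPM of the 33 adipocyte genes (rows, in 3 groups divided by red lines) in the 8 samples (columns); the printed number is the CPM and the colour is log2(CPM + 1). Buccal mucosa replicate 2 has the highest value for 26 of the 33 genes, against 26.5% of the 15942 entries with a mean of at least 1 CPM. Most fat-restricted genes are under 1 CPM in the tongue.

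The droplet coat proteins divided. Plin1, the perilipin that guards the adipocyte droplet from lipolysis, was at 108 CPM in buccal mucosa replicate 2 and at 4.85 in hard palate replicate 2. Its other values were 0.118 CPM in buccal mucosa replicate 1, 0.0942 and 0.344 in dorsal tongue, 0.507 in hard palate replicate 1, and 0 and 0.0487 in ventral tongue. Cidec, which fuses small droplets into the single large one of white fat, was at 153 CPM and 6.26 in the same pair of samples and under 1 CPM in the other 6. Cidea, its relative known from brown fat and from sebaceous glands, did not follow this order. It was at 26.2 and 41.9 CPM in buccal mucosa, 34.1 and 37.9 in dorsal tongue, 35.8 and 50.7 in ventral tongue, and 7.38 and 11.2 in hard palate. Its 2 hard palate values lay below the other 6, and buccal mucosa replicate 2 lay within the range of the tongue. The beta-3 adrenergic receptor Adrb3 was at 22.4 CPM in buccal mucosa replicate 2 against 0.612 to 3.44 elsewhere. Ucp1, the uncoupling protein of brown fat, had 0 UMIs in buccal mucosa replicate 2 (up to 0.383 CPM) and 0.146 to 1.18 CPM in the others. The sample with the most fat RNA therefore had no UMI of the gene that defines brown fat. Altogether buccal mucosa replicate 2 was highest for 7 of the 9 fat-restricted genes, with a median of 24.4 times the highest of the other samples. Among the 15942 entries with a mean of at least 1 CPM it was highest for 26.5%, with a median of 0.647.

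UMIs tag transcript ends, so levels need no scaling by length. Levels of Plin1, Cidec, Retn and Cfd relative to Adipoq were compared between the samples that held at least 1 CPM of it. Plin1 was at 0.294 of Adipoq in buccal mucosa replicate 2, 0.428 in hard palate replicate 2 and 0.429 in hard palate replicate 1, the last from 9 UMIs. Cidec was at 0.416, 0.552 and 0.619, and Retn at 0.387, 0.294 and 0.524, in the same order. Cfd was at 4.76, 2.26 and 3.29. The ratios of these genes differed far less between the samples than the level of Adipoq did. This did not hold for every fat gene. Adrb3 was at 22.4, 2.24 and 1.52 CPM and Cidea at 41.9, 11.2 and 7.38 in the same order, so both fell far less than Adipoq. Pck1, of the lipid synthesis group, was at 0.336, 0.134 and 0 of Adipoq.

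Buccal mucosa was set against the average of the remaining 3 sites by edgeR's quasi-likelihood test on UMIs summed per sample, with Benjamini-Hochberg adjustment over 18609 genes. None of the 32 adipocyte genes that passed the filter on low counts was called, against 0.720% of all genes tested. With edgeR 24 of the 32 had an unadjusted p under 0.05, against 3604 of all 18609 genes. DESeq2 called 18 of the 32, against 7.63% of all genes. The fold changes were large and their errors too. Adipoq had a log2 fold change of 8.54 ± 1.75 (SE, n = 2 and 6; edgeR adjusted p = 0.0794), Cfd 9.56 ± 2.05 (0.0846), Cidec 8.02 ± 1.79 (0.0897), Retn 7.66 ± 1.58 (0.0799) and Plin1 7.60 ± 1.72 (0.0919). Each SE was worked back from the fold change and the F statistic of the test, so it is approximate. The fold changes depend on the prior count where tongue samples had 0 or 1 UMI. Without buccal mucosa replicate 2 they were 0.51 for Adipoq, 1.11 for Cfd, -0.29 for Cidec, -0.96 for Retn and -1.18 for Plin1, with 0 adipocyte genes called and 0.821% of all genes. Without buccal mucosa replicate 1, where replicate 2 alone stands for the site and is assumed to vary like the other sites, 26 adipocyte genes passed, against 25.2% of all genes. The high fat genes of this site thus rested on 1 sample.

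Adipoq, Plin1, Cidec, Retn and Cfd had higher estimates in hard palate than in the mean of the other 3 sites once buccal mucosa replicate 2 was left out. Cidea had a lower one (-2.19). With all 8 samples Adipoq had a log2 fold change of 1.77 ± 1.80 against the mean of the other sites (SE, n = 2 and 6; edgeR adjusted p = 0.582) and was not called, nor were Plin1, Cidec, Retn and Cfd. Without that sample the changes were 4.45 ± 0.99 for Adipoq, 4.51 ± 1.01 for Plin1, 4.62 ± 1.13 for Cidec, 3.40 ± 0.71 for Retn and 4.25 ± 1.27 for Cfd. The sample left out held the highest level of each of these genes. Plin1, Cidec and Retn then passed the filter on low counts through hard palate alone. In buccal mucosa replicate 1 and the tongue they reached at most 0.344, 0.394 and 0.197 CPM. Their calls in this fit therefore carry no weight. In that fit 16 adipocyte genes were called, 5 higher and 11 lower, against 16.4% of all genes, 6.5% higher and 9.92% lower. The genes called higher were Adipoq and Car3, with Plin1, Cidec and Retn, whose calls carry no weight. Cfd was not called. Both hard palate samples lay above buccal mucosa replicate 1 and the 4 tongue samples for Adipoq, Plin1, Cidec, Retn and Cfd. The same held for 27.8% of the 15942 entries. Hard palate replicate 1 had 9 UMIs of Plin1, against 7 in dorsal tongue replicate 2. Its 95% counting intervals overlapped for Adipoq (0.733 to 1.81 CPM, against 0.367 to 1.24 in buccal mucosa replicate 1). They overlapped for Cfd too (3.03 to 4.92, against 2.51 to 4.13 in dorsal tongue replicate 2). With buccal mucosa replicate 2 kept among the other sites and hard palate replicate 2 left out, Adipoq was at -0.58, Plin1 at -0.78, Cidec at -0.37, Retn at -1.09 and Cfd at -0.45. Between the hard palate replicates the second exceeded the first 9.58-fold for Adipoq, 9.57-fold for Plin1, 8.54-fold for Cidec, 6.60-fold for Cfd and 5.38-fold for Retn.

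The section series placed fat RNA at different positions in the 2 samples that held most of it. In buccal mucosa replicate 2 Adipoq was between 240 and 597 CPM in sections 1 to 16, at 203 in section 17 and between 29.7 and 54.1 in sections 18 to 20. Cfd moved alike, with 1456 to 2642 CPM in sections 1 to 16 and 286 CPM in section 20. In blocks of 5 sections from 1 to 20, Plin1 stood at 141, 148, 115 and 40.6 CPM and Lep at 11.5, 9.33, 6.75 and 2.93. Fat genes were thus lowest in the last sections, where the muscle enzyme Ckm was highest (10900 CPM in section 20). In hard palate replicate 2 the direction was the opposite. Adipoq was at 0 to 1.72 CPM in sections 1 to 8, at 5.41 to 6.03 in sections 9 to 11 and at 11.8 to 31.4 from section 12 on. Cfd stood at 2.05, 5.86, 36.4 and 46.6 CPM in the 4 blocks, Cidec at 0.342, 3.11, 8.52 and 10.7, and Retn at 0.171, 0.915, 4.26 and 6.42. Hard palate replicate 1 had 21 UMIs of Adipoq, all in sections 11 to 20.

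**Figure D2:**
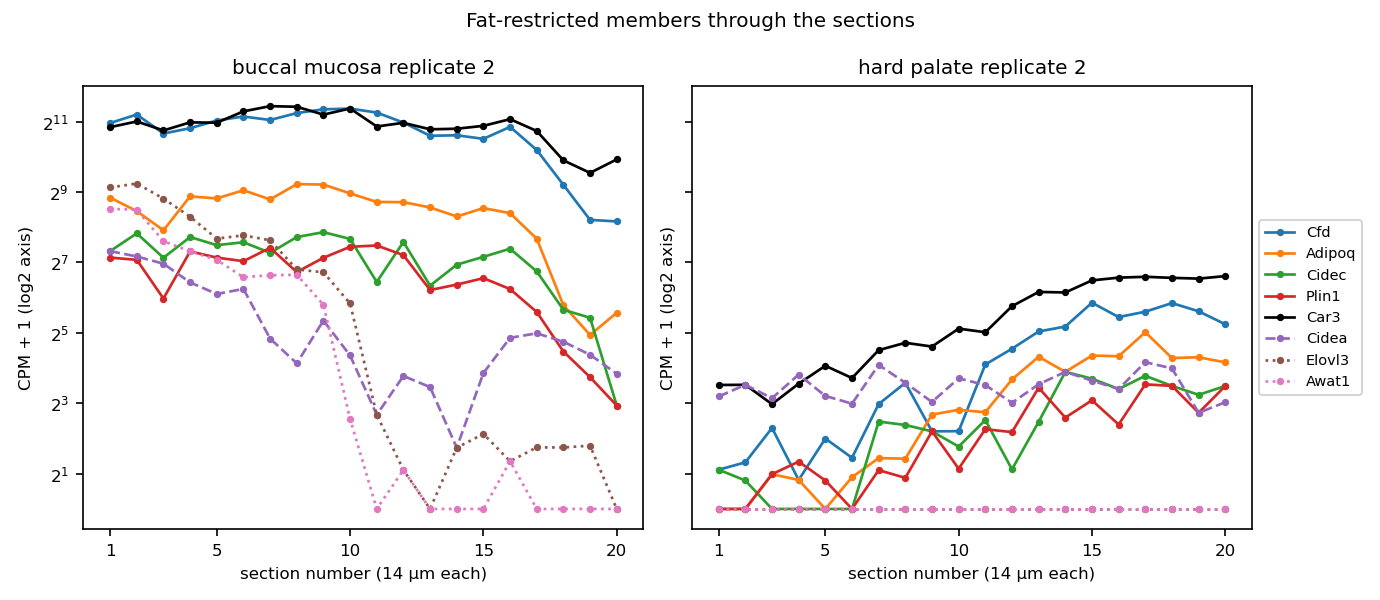
CPM + 1 (log2 axis) of fat-restricted genes, Car3 and the gland genes Elovl3 and Awat1 against section number in buccal mucosa replicate 2 (left) and hard palate replicate 2 (right); each point is 1 section. On the left Adipoq, Cfd, Cidec, Plin1 and Car3 stay level and drop after section 16 while Cidea falls early with Elovl3 and Awat1, and on the right Cidea stays level (5.64 to 17 CPM) while the fat genes climb.

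Cidea separated from the fat genes within the sections as well. In buccal mucosa replicate 2 it fell from 159 CPM in section 1 to 5.38 in section 11 and was at 2.34 to 30.7 in sections 12 to 20. Awat1, a wax synthase of sebaceous glands, went from 367 CPM in section 1 to 0 in section 11, and Elovl3, a fatty acid elongase of brown fat and sebaceous glands, from 559 to 5.38. Over the 20 sections the Spearman correlation of Cidea was 0.805 with the mean of Awat1 and Elovl3, 0.789 with the keratinocyte genes and 0.334 with the other fat-restricted genes. Ranked over 7038 genes, in a search chosen after values were seen, Dhrs7 (0.884), Rrbp1 (0.877), Aldh3b2 (0.860), Dcpp2 (0.859) and Perp (0.859) were most like it. Fxyd3 (0.856), Pam (0.839), Ly6g6c (0.837), Krt18 (0.835) and Wfdc2 (0.833) completed the first 10. For Adipoq, Plin1, Cidec, Retn and Cfd the correlation with the other fat-restricted genes was 0.574 to 0.866 there and, for the 4 of these with at least 100 UMIs, 0.854 to 0.913 in hard palate replicate 2. Sections of a sample share a library and neighbours resemble each other, so these correlations are descriptions. Awat1 was at most 0.148 CPM and Elovl3 at most 0.0618 in the other 7 samples, in which Cidea was at 7.38 to 50.7 CPM.

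Most genes shared with muscle or its capillaries were high where muscle RNA was high and low in hard palate. Car3, Lipe and Acsl1 differed and are described below. Lpl, the lipoprotein lipase that frees fatty acids from blood lipoproteins, was at 331 and 1148 CPM in buccal mucosa, 348 and 441 in dorsal tongue, 809 and 679 in ventral tongue and 18.2 and 81.2 in hard palate. Cd36, the fatty acid transporter of fat, muscle and capillaries, was at 87.3, 375, 97.6, 115, 195 and 212 CPM in the same 6 samples of cheek and tongue and at 4.0 and 7.58 in hard palate. Fabp4, which carries fatty acids in adipocytes and capillary endothelium, was at 109, 1173, 122, 144, 254 and 243 CPM against 10.8 and 39.7 in hard palate. In each of these genes both hard palate values lay below all 6 others. The insulin-responsive glucose transporter Slc2a4 was at 71.7 to 241 CPM outside hard palate and at 5.81 and 5.42 in it, and Gpd1, which makes the glycerol backbone, at 12 to 184 against 0.676 and 1.63. Plin4, a droplet coat protein of fat and muscle, was at 12.8 to 106 CPM against 0.789 and 1.40, and the glycerol channel Aqp7 at 1.18 to 11.9 against 0.282 and 0.0758, the last from 2 UMIs. Both hard palate values lay below buccal mucosa replicate 1 and all tongue samples for 8 of the 11 genes in the group, as they did for 11.9% of the 15942 entries.

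Against the mean of the other 3 sites, hard palate was lower in 8 of the 32 adipocyte genes tested and higher in none, where 9.76% of all genes were called, 3.35% higher and 6.42% lower. Slc2a4 fell by 4.90 ± 0.50 on the log2 scale (SE, n = 2 and 6; edgeR adjusted p = 0.00374), Gpd1 by 5.52 ± 0.86 (0.0121), Plin4 by 5.33 ± 0.84 (0.0123) and Cd36 by 5.18 ± 0.75 (0.00976). Aqp7 (-4.91), Lpl (-3.90), the triglyceride lipase Pnpla2 (-2.77) and Cidea (-2.31) fell too, so that 7 of the 8 were of the group shared with muscle. Its median was -3.90, against -0.01 for all genes. Scaled by library size alone, the median of all genes moved to 0.29 and the split of all calls from 623 higher and 1194 lower to 1403 higher and 1006 lower. Fabp4 was at -3.76 ± 1.07 and missed the threshold (adjusted p = 0.0743), and passed without buccal mucosa replicate 2 (-2.90, adjusted p = 0.0128). In the test of any difference between the 4 sites 5 adipocyte genes passed (Slc2a4, Gpd1, Cidea, Cd36 and Plin4), against 4.77% of all genes. Each of the 5 lost this call without any 1 of the 6 samples of tongue and hard palate. In those fits almost no gene of the whole set was called, so the loss was not particular to the 5. Slc2a4 alone kept its hard palate call whichever sample was left out. The other 7 lost it without hard palate replicate 1 (adjusted p = 0.106 to 0.184), and all but Cidea without hard palate replicate 2 (0.0597 to 0.179). Lpl and Aqp7 also lost it without any 1 of the 4 tongue samples (0.0693 to 0.0968). Skeletal muscle genes stood at 678 and 237 summed CPM in hard palate against at least 20220 elsewhere, and endothelial genes at 159 and 236 against 236 to 551. Their part in these differences was not tested.

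Car3, a carbonic anhydrase abundant in fat and in slow muscle, stood in this group by its known expression and followed the fat genes instead. It was at 1921 CPM in buccal mucosa replicate 2 and 12.7 in replicate 1, at 14.4 and 54.2 in hard palate, 3.30 and 6.40 in dorsal tongue and 1.73 and 1.85 in ventral tongue. Both hard palate samples exceeded buccal mucosa replicate 1 and the tongue, which was true of no other gene of the group and of 27.8% of the 15942 entries. Per 1000 UMIs of the skeletal muscle genes Car3 was at 0.0549 to 0.611 in buccal mucosa replicate 1 and the tongue, at 35.1 in buccal mucosa replicate 2 and at 21.2 and 229 in hard palate. Slc2a4, by the same measure, was at 3.49 to 6.79 in buccal mucosa replicate 1 and the tongue, at 4.41 in buccal mucosa replicate 2 and at 8.56 and 22.9 in hard palate. The hard palate rise was not particular to Car3, as muscle RNA was scarce there. Acsl1 was at 156 and 548 in hard palate, Lipe at 38.1 and 114 and Pnpla2 at 79.4 and 234, against at most 9.82, 1.85 and 14.95 in buccal mucosa replicate 1 and the tongue. Every gene of the group exceeded that range in hard palate replicate 2, and all but Cd36, Plin4 and Gpd1 in replicate 1. In hard palate replicate 2 the sections took Car3 from 10.5 CPM in the first to 96.8 in the last, with a Spearman correlation of 0.920 with the fat-restricted genes. Against the other sites Car3 in hard palate had a log2 fold change of 0.45 (edgeR adjusted p = 0.865). Without buccal mucosa replicate 2 it rose by 2.53 ± 0.50 (adjusted p = 0.0172), and without hard palate replicate 2 it was at -0.75.

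Lipolysis and fatty acid activation genes varied less. Lipe, the hormone-sensitive lipase, was at 77.4 CPM in buccal mucosa replicate 2, at 10.2 in replicate 1 and at 20.8 to 37.5 in the other 6 samples, hard palate included (25.8 and 26.9). Acsl1, which activates fatty acids with coenzyme A, was at 204 and 256 CPM in buccal mucosa, 123 and 147 in dorsal tongue, 181 and 191 in ventral tongue and 106 and 130 in hard palate, where it missed the threshold (log2 fold change -0.91, edgeR adjusted p = 0.0685). Pnpla2, which takes the first fatty acid off a triglyceride, was at 53.9 and 55.4 CPM in hard palate and at 165 to 514 elsewhere. All 11 genes of the group were highest in buccal mucosa replicate 2, by a median of 1.77 times the next sample against 24.4 in the fat-restricted group. That sample was highest for 26.5% of the 15942 entries, with a median of 0.647. It was also highest for 15 of the 18 skeletal muscle genes, with a median of 1.765.

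**Figure D3:**
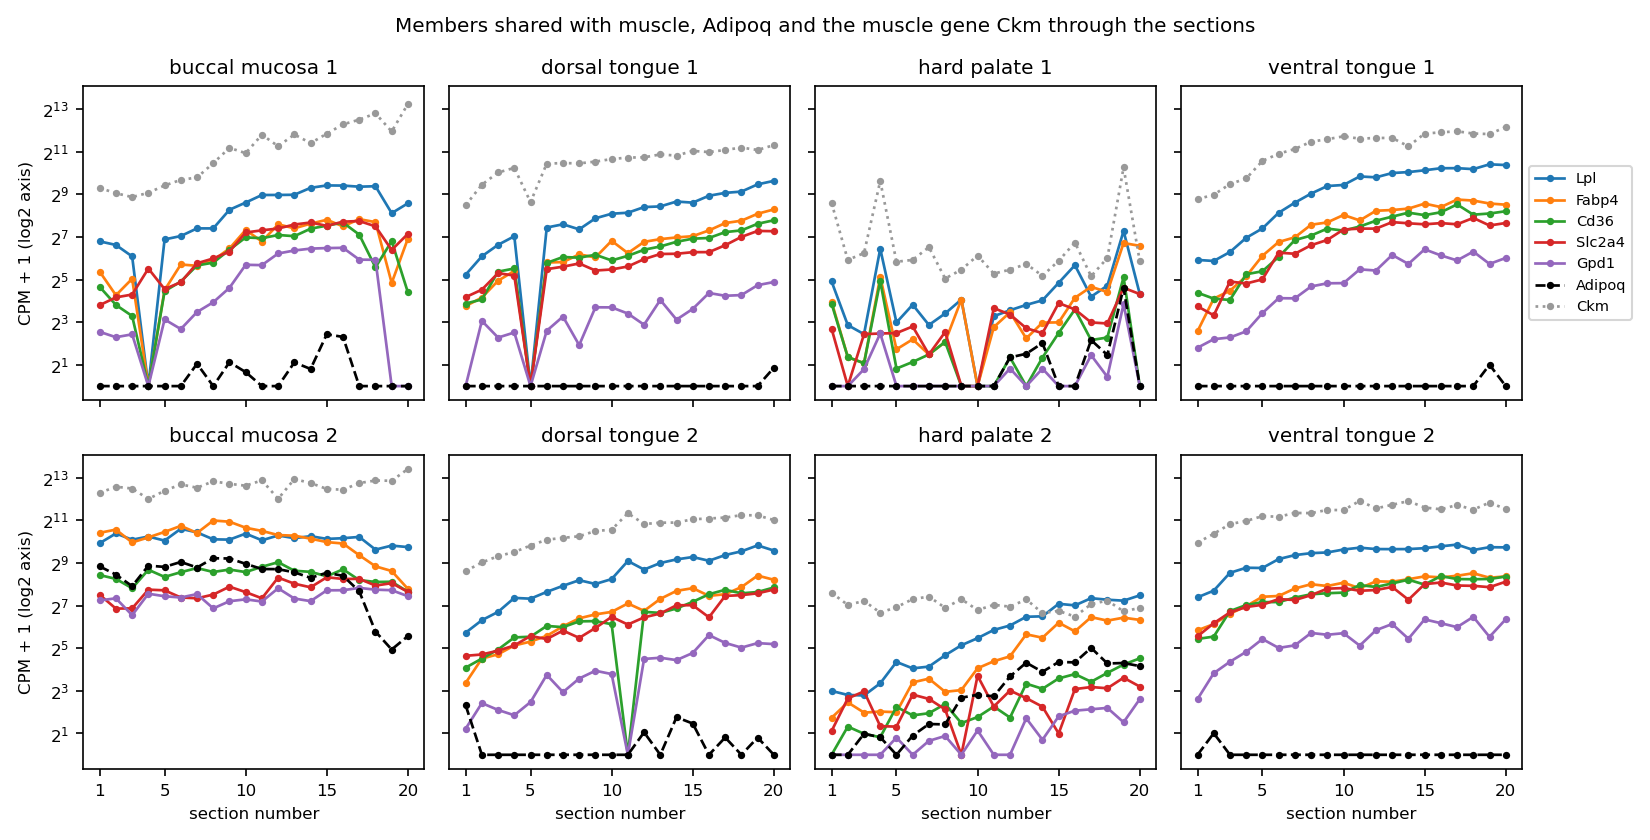
CPM + 1 (log2 axis) of 5 genes shared with muscle, of Adipoq (dashed) and of the muscle creatine kinase Ckm (dotted) against section number in the 8 samples. In buccal mucosa replicate 1 and the tongue samples the shared genes climb with Ckm while Adipoq stays at or near 0, and in hard palate replicate 2 Lpl and Fabp4 climb with Adipoq while Ckm stays between 88.5 and 193 CPM.

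The shared genes rose with section number where muscle RNA did. In dorsal tongue replicate 2 Lpl went from 52.1 CPM in section 1 to 907 in section 19 and Fabp4 from 9.34 to 339, while Adipoq had 11 UMIs in the whole sample. The Spearman correlation over sections with the skeletal muscle genes was 0.968 for Lpl in buccal mucosa replicate 1, 0.974 and 0.980 in dorsal tongue and 0.913 and 0.919 in ventral tongue. For Slc2a4 it was 0.938, 0.946, 0.946, 0.859 and 0.812 in those samples. Hard palate replicate 2 differed. There Lpl rose from 9.92 CPM in sections 1 to 5 to 158 in sections 16 to 20 and Fabp4 from 3.25 to 79.1, with correlations of 0.931 and 0.959 with the fat-restricted genes, and the endothelial gene Cdh5 rose from 4.96 to 23.6. In buccal mucosa replicate 2 the group split, by correlations with a mean of fat-restricted genes that includes Cidea. Fabp4 (correlation with fat-restricted genes 0.759), Lipe (0.729), Car3 (0.671) and Plin4 (0.552) lay with the fat genes, while Slc2a4 (-0.377) and Gpd1 (-0.385) ran against them and with the muscle genes (0.508 and 0.477).

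Among the lipid synthesis and regulation genes, 8 of 13 were highest in buccal mucosa replicate 2, against 26.5% of the 15942 entries. Scd1, the desaturase that makes oleic acid, was at 1776 CPM in buccal mucosa replicate 2 and at 21.5 to 34.3 in the other 7 samples, hard palate replicate 2 included (29.2). Pck1, a kinase that feeds glycerol synthesis in fat, was at 123 CPM there, at 1.52 in hard palate replicate 2 and at 0 to 0.178 elsewhere. Thrsp, a lipogenic regulator, was at 118 CPM against 1.01 to 10.4. Pparg was at 24.1 CPM in buccal mucosa replicate 2, at 3.66 and 7.55 in hard palate and at 1.41 to 2.14 in the other 5 samples. Pde3b, the phosphodiesterase through which insulin restrains lipolysis, was at 25.4 CPM against 1.08 to 3.83. The order of these 5 genes compares 1 sample with 7, without a test, and in hard palate replicate 2 Scd1 was within and Thrsp below the range of the tongue samples.

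The remaining enzymes showed other orders. Fasn, which builds palmitate, was at 84.6 and 228 CPM in buccal mucosa, 82.1 and 51.0 in hard palate, 34.3 and 42.2 in dorsal tongue and 31.0 and 34.0 in ventral tongue. Acaca, which supplies Fasn with malonyl-CoA, was at 56.2 and 58.2, 71.2 and 44.7, 29.4 and 30.9, and 28.3 and 31.2 CPM in those sites in turn. Me1, the malic enzyme that supplies NADPH, was lowest where fat RNA was highest, at 145 CPM in buccal mucosa replicate 2 against 328 to 847 elsewhere. Dgat2, which closes triglyceride synthesis, was also lowest there, at 176 CPM against 296 to 438, whereas its partner enzyme Dgat1 was highest, at 35.1 against 5.98 to 16.7. Acly, which makes cytosolic acetyl-CoA, stayed between 111 and 194 CPM in all samples. Cebpa ranged from 20.5 to 146 CPM with its top in hard palate replicate 1, and Agpat2, an enzyme of phosphatidic acid synthesis, from 22.8 to 67.1. With edgeR on all 8 samples none of the 13 genes passed in any of the 4 site tests. DESeq2 called Scd1, Fasn, Thrsp and Pde3b between the 4 sites, and those genes and Pck1 higher in buccal mucosa. It called Thrsp lower in hard palate (log2 fold change -2.88, DESeq2 adjusted p = 0.0216). Over all genes it called 3294 of 18609 between the sites, 1033 of 18248 higher in buccal mucosa and 2016 of 18609 lower in hard palate. Without buccal mucosa replicate 2 edgeR called Dgat2 lower in hard palate (adjusted p = 0.0457). Within buccal mucosa replicate 2 the correlation over sections with the fat-restricted genes, Cidea included, was 0.935 for Scd1, 0.768 for Thrsp and 0.765 for Pck1, against 0.147 for Me1.

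No adipocyte gene was called between dorsal and ventral tongue. None of 32 passed (edgeR), where 0.00537% of all genes did, and DESeq2 called none of them and 0.784% of all. With edgeR 1 gene, Ucp1 (log2 fold change 2.27 ± 0.94, SE, n = 2 and 2, adjusted p = 0.916), had an unadjusted p under 0.05, against 1013 of all 18609. Ucp1 was at 0.612 and 1.18 CPM in dorsal and 0.247 and 0.146 in ventral tongue, from 3 to 24 UMIs. Of the genes shared with muscle, Slc2a4 was at -0.86 ± 0.45 and Cd36 at -0.84 ± 0.66, lower in dorsal than in ventral tongue in all samples and short of the threshold.

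Position in the block was compared between the later sections, 11 to 20, and the earlier ones, 1 to 10, with the sample as a block. Of the 33 adipocyte genes 16 passed (edgeR, adjusted over 17905 genes), 11 higher and 5 lower in the later sections, where 27.6% of all genes passed, 15.7% higher and 11.9% lower. The group shared with muscle gave 9 of the 11 rises. Gpd1 rose by 1.51 ± 0.21 on the log2 scale (SE, n = 8 samples; adjusted p = 0.000463), Slc2a4 by 1.15 ± 0.15 (0.000309), Cd36 by 1.24 ± 0.21 (0.00121) and Lpl by 1.38 ± 0.24 (0.00166). Fabp4 (1.46), Plin4 (1.25), Car3 (1.14), Aqp7 (1.08) and Pnpla2 (0.56) rose as well. Gpd1 and Slc2a4 were higher in the later sections of 8 of 8 samples, and Fabp4, Cd36 and Lpl in 7 of 8. The exception was buccal mucosa replicate 2 for Fabp4 and Lpl and hard palate replicate 1 for Cd36. The median log2 fold change was 1.15 in this group, 0.51 in the fat-restricted group and -0.20 in the lipid synthesis group, against 0.03 for all genes. Skeletal muscle genes moved in the same direction, with 9 of 17 higher, and so did endothelial genes, with 9 of 9.

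**Figure D4:**
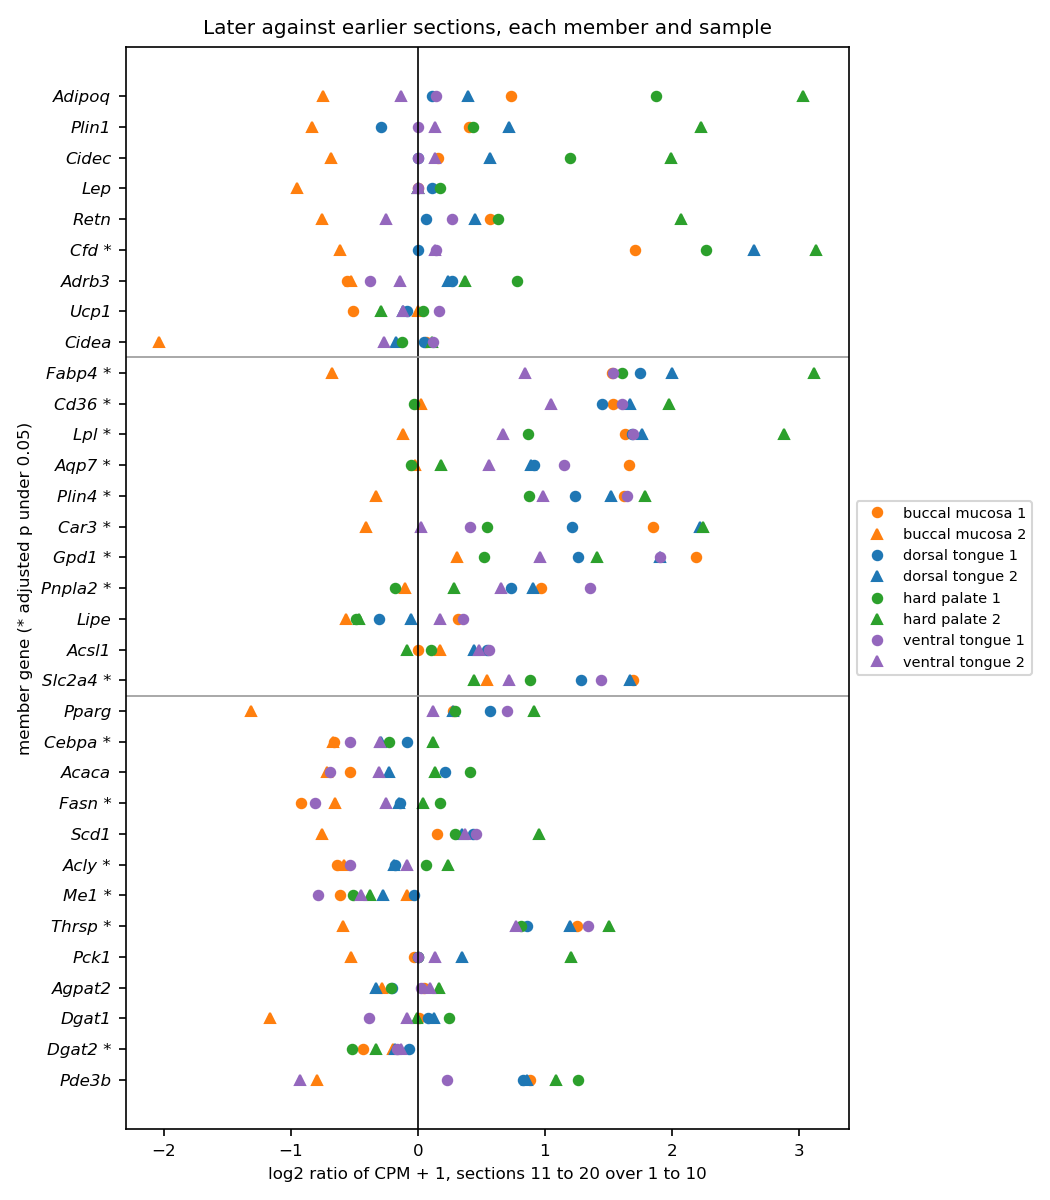
log2 ratio of CPM + 1 in sections 11 to 20 over sections 1 to 10 for each of the 33 adipocyte genes (rows) in each sample (circles replicate 1, triangles replicate 2, colours sites); an asterisk marks adjusted p under 0.05. Gpd1 and Slc2a4 lie to the right of 0 in all 8 samples, Me1 and Dgat2 to the left in all 8, and Adipoq, Plin1, Cidec, Retn and Cfd spread from buccal mucosa replicate 2 on the left to hard palate replicate 2 on the right.

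Cfd was the 1 fat-restricted gene that rose in the later sections (1.84 ± 0.58, SE, n = 8; edgeR adjusted p = 0.0347), and it lost the call without 5 of the 8 samples in turn (adjusted p = 0.0586 to 0.132). For Adipoq, Plin1 and Retn 2 of the 8 samples were lower in the later sections, and for Cidec and Cfd 1, with several samples resting on 0 to a few UMIs. Buccal mucosa replicate 2 was lower for all 5 genes. There the log2 ratio of sections 11 to 20 over 1 to 10 was -0.75 for Adipoq, -0.83 for Plin1, -0.68 for Cidec, -0.76 for Retn and -0.61 for Cfd, while hard palate replicate 2 had 3.03, 2.23, 2.00, 2.07 and 3.14. Without buccal mucosa replicate 2 Adipoq rose by 3.02 ± 0.49, Cidec by 2.34 ± 0.38, Retn by 2.35 ± 0.60, Plin1 by 2.38 ± 0.63 and Cfd by 3.25 ± 0.26. That fit left 1 sample for buccal mucosa. A gene could then pass the filter on low counts through the later hard palate sections alone, where these genes were highest. Their calls in it therefore carry no weight. Without hard palate replicate 2 Adipoq was at 0.03, Plin1 at -0.34, Cidec at -0.090 and Retn at -0.26, so these differences between sections too turned on which samples were counted.

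Whether the difference between later and earlier sections depended on the site was tested by their interaction. Adipoq was the 1 adipocyte gene of 33 that passed (edgeR adjusted p = 0.0419), against 0.408% of all genes. Its fitted log2 fold change, later over earlier, was -0.50 in buccal mucosa, 1.20 in dorsal tongue, 3.72 in hard palate and -0.18 in ventral tongue, the tongue values resting on 1 to 11 UMIs a sample. Cidec was next (adjusted p = 0.0553; -0.56 in buccal mucosa and 2.46 in hard palate). The call of Adipoq was lost without 6 of the 8 samples in turn, and without buccal mucosa replicate 2 its adjusted p was 0.413.

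The 5 of 33 adipocyte genes called lower in the later sections, against 11.9% of all genes, all belonged to lipid synthesis and its regulation. Scaled by library size alone, 3 adipocyte genes were called lower. Me1 fell by 0.43 ± 0.09 (SE, n = 8; edgeR adjusted p = 0.00500), Fasn by 0.37 ± 0.09 (0.0120), Cebpa by 0.37 ± 0.07 (0.00332), Dgat2 by 0.29 ± 0.09 (0.0270) and Acly by 0.27 ± 0.08 (0.0241). Me1 and Dgat2 were lower in 8 of 8 samples, Cebpa in 7 and Fasn and Acly in 6. In ventral tongue replicate 1 Me1 went from 931 CPM in section 1 to 221 in section 20, and in hard palate replicate 2 from 1028 in section 3 to 554 in section 20. Keratinocyte genes moved with them, with 4 of 8 lower and none higher in the later sections, against 11.9% and 15.7% of all genes. Over the sections of ventral tongue replicate 1 the correlation with the keratinocyte genes was 0.943 for Me1 and 0.937 for Fasn, and in buccal mucosa replicate 1, where both also fell, it was -0.092 and -0.183. The part of the epithelium in these falls was not tested. Thrsp was the 1 gene of its group that rose in the later sections (0.95 ± 0.26, adjusted p = 0.0161), and it lost the call without ventral tongue replicate 1 (0.0543). Acly lost it without either dorsal tongue sample or ventral tongue replicate 1 (0.0519 to 0.0601), Dgat2 without dorsal tongue replicate 2 (0.0633), Car3 without buccal mucosa replicate 1, dorsal tongue replicate 2 or hard palate replicate 2 (0.0542 to 0.0661), and Pnpla2 without 5 samples in turn (0.0648 to 0.109). The other 10 genes passed whichever sample was left out.

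Other genes of the pathway were read from lists that are not among the 33. Of 10 further adipocyte genes 9 were highest in buccal mucosa replicate 2, by a median of 10.2 times the next sample, against 26.5% of the 15942 entries. Cyp2e1, an oxidising enzyme of liver and fat, was at 143 CPM there and at 0 to 1.02 elsewhere, and Sncg, a synuclein abundant in white fat, at 84.0 against 8.20 to 22.4. Nrip1, a nuclear receptor corepressor, was the exception at 32.7 CPM against 30.1 to 119. Of the 8 tested between sites none passed for buccal mucosa, and Fam13a alone was lower in hard palate (-3.30 ± 0.59, SE, n = 2 and 6; edgeR adjusted p = 0.0189). Of 24 genes of lipid droplets and lipid handling 8 were lower in hard palate and none higher, against 6.42% and 3.35% of all genes, with a median of -0.63. Among them were Lpin1, which makes diacylglycerol (-4.29), the muscle droplet protein Plin5 (-6.39), and Gpihbp1, which tethers lipoprotein lipase to capillaries (-4.96). In the later sections 10 of the 24 rose and 2 fell, against 15.7% and 11.9% of all genes, among them Plin5 (1.40), Gpihbp1 (1.11), and the fatty acid binding protein of epithelium, Fabp5 (-0.81). Of 10 brown fat genes, which include Ucp1 and Cidea, 9 were tested and 4 were lower in hard palate, against 6.42% of all genes. The respiratory chain subunits Cox8b and Cox7a1, also made in muscle, were at 769 and 610 CPM in buccal mucosa replicate 2, at 206 to 883 in the other samples of cheek and tongue and at 0.493 to 7.55 in hard palate.

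By likeness over the 20 sections of buccal mucosa replicate 2, 7009 genes with a mean of at least 20 CPM there were ranked. The measure was their Spearman correlation with the mean of all 9 fat-restricted genes. That mean includes Cidea, which fell early with Awat1 and Elovl3, so the ranking does not follow the fat genes alone. The 10 highest were H2-K1 (0.905), Gm45713 (0.892), Cyp2f2 (0.890), Rpl13a (0.889), Rbp4 (0.874), Rps19 (0.874), Cers4 (0.865), Cyb5a (0.865), Echdc1 (0.856) and Mrap (0.853). Rbp4, a retinol carrier secreted by liver and fat, averaged 59.5 CPM in those sections against 1.13 in buccal mucosa replicate 1 and 2.77 in hard palate replicate 2. Mrap, an accessory protein of the melanocortin receptor, averaged 27.2 against 0.296 and 0.796. The other 8 were at 26.8 to 2158 CPM in buccal mucosa replicate 1, so likeness along the sections did not by itself mark genes that were scarce outside the fat-rich sample.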

How the data were processed

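UMI counts per gene and section were deposited by the authors for 8 samples of 20 sections, with counts of reads and expected counts (estimated transcripts), all without normalization. Reads were trimmed with Trim Galore 0.6.10 and aligned with STAR 2.7.9a to GRCm38, per the submitters' processing notes, while no source used here gives the counting program. The members and lists were chosen with earlier results of these data known. UMIs were summed per sample, or per 10 sections for position in the block, with the sample as a block, and tested with edgeR 4.0.16 (quasi-likelihood, TMM, filterByExpr, Benjamini-Hochberg over all genes, threshold 0.05) in R 4.3.3; the fits were tested on simulated data. DESeq2 1.42.0, other scalings and tables, no filter, a replicate block and leaving out each sample were alternatives, with estimated transcripts rounded. Spearman correlations used log2(CPM + 1) per section, for genes with at least 100 UMIs in the sample; leaving out sections under 100000 UMIs was added after seeing the data. Counts stop near 4096 UMIs per gene and section. Of all entries, 413 name several genes. Named were all members, the 4 most abundant genes of each other list and the 10 genes most alike over sections. Elovl3, Ckm, Lpin1, Plin5 and Gpihbp1 were named after their values had been seen. Correlations with the fat-restricted genes used the mean of all 9, Cidea included, less the gene itself. Per 1000 muscle UMIs means per 1000 UMIs of the 18 muscle genes. Positions are from GENCODE vM21. Intervals and limits at 0 cover counting error only.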

Additional observations from a re-analysis of the deposited data

Results flagged for a closer look

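The difference of Adipoq, which encodes adiponectin, between sections 11 to 20 and 1 to 10 depended on the site by the test of the interaction itself (edgeR's quasi-likelihood test, adjusted p = 0.0419 over 17905 genes). In sections 1 to 10 and 11 to 20 Adipoq was at 476 and 284 CPM in buccal mucosa replicate 2 and at 0.986 and 16.3 CPM in hard palate replicate 2. The adjusted p ran from 0.000963 to 0.413 as each sample was left out and was 0.836 with DESeq2.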

How the results depend on the processing

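Of the comparisons made while leaving out 1 sample, 285 values kept their direction and side of the threshold, 75 lost a call and 18 gained one. Of those under another setting, 344 kept both, 9 lost a call and 25 gained one. Genes called ran from 0 to 5684 between the sites (adipocyte genes 0 to 28), 0 to 5093 for buccal mucosa (0 to 26), 318 to 5526 for hard palate (1 to 16), 0 to 123 between the tongue sides (0 to 0), 3401 to 5326 for later against earlier sections (11 to 22) and 10 to 986 for sections by site (0 to 13). Directions changed in 14 cases. For hard palate the log2 fold changes ran from -0.58 (without hard palate replicate 2) to 4.45 (without buccal mucosa replicate 2) for Adipoq, and between the same settings from -0.78 to 4.51 for Plin1, -0.37 to 4.62 for Cidec, -1.09 to 3.40 for Retn, -0.45 to 4.25 for Cfd and -0.75 to 2.53 for Car3. For sections these settings gave -0.34 to 2.38 for Plin1, -0.090 to 2.34 for Cidec and -0.26 to 2.35 for Retn. For buccal mucosa the lowest values, without its replicate 2, and the highest were -1.18 and 8.53 for Plin1, -0.29 and 9.67 for Cidec, -0.96 and 8.60 for Retn, -0.36 and 5.82 for Scd1, and -0.37 and 4.63 for Thrsp. Where 1 sample was left in a site it was assumed to vary like the others.

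With DESeq2 3294 genes were called between the sites (adipocyte genes 21), 1392 for buccal mucosa (18), 3109 for hard palate, 143 between the tongue sides and 419 for sections by site. With no filter on low counts these were 4522 (24), 2584 (22), 3728 (15), 377 (1) and 1958 (18). By library size alone 155 were called for sections by site (2), with 2 adipocyte genes for buccal mucosa, and with RLE scaling 128 (2). Reads gave 31 for sections by site (0) and 1 adipocyte gene for buccal mucosa, and estimated transcripts also 1. Sections 1 to 6 against 15 to 20 gave 2 for sections by site (0). The split for sections was 2815 higher and 2123 lower, 2370 and 2653 with RLE, 2354 and 2644 with DESeq2, and 2403 and 2581 with estimated transcripts. By library size alone it was 2949 and 1233, with 3 adipocyte genes lower instead of 5. The replicate numbers are not said to pair samples (deviations of same-numbered samples correlated at -0.262 to 0.539 between sites). With the number as a replicate block 362 genes were called between the sites, 2 for buccal mucosa (1 adipocyte gene), 0 between the tongue sides and 42 for sections by site. The causes were not tested. Section correlations named for Cidea, Car3, Slc2a4, Gpd1 and Scd1 kept their sign with log2(CPM + 10).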
